A study of Homo sapiens with 8 samples.

Results

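The response of PHF13-depleted Panc-1 cells to TGFβ was read from 4 mRNA-seq libraries, 2 of siPHF13 cells without TGFβ and 2 of siPHF13 cells with it, out of the 8 libraries of the series. Panc-1 is a human cell line from a carcinoma of the pancreatic duct, and PHF13 is a PHD finger protein that reads methylated lysine 4 of histone H3. Cells were transfected with siRNA against *PHF13* or with control siRNA (siControl), and from the next day 1 set of each received growth medium with 10 ng/ml TGFβ for 48 h. All 13307 genes of the deposited table entered the comparison of the siPHF13_TGFβ with the siPHF13 libraries, and the matched response of siControl cells, which shares no library with it, served as reference. The study used 1 cell line and a transient knockdown in which the controls are also transfected, and no untransfected library was analysed here.

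TGFβ binds a pair of transmembrane kinases, TGFBR2 and TGFBR1, which phosphorylate SMAD2 and SMAD3. These join SMAD4, enter the nucleus and switch on target genes, among them inhibitors of the pathway such as SMAD7, SKIL and PMEPA1. In carcinoma cells the pathway is known for driving the epithelial-to-mesenchymal transition (EMT), in which cells give up junctions and lay down and remodel matrix. The question put to these libraries was how much of that program was still switched on when PHF13 was depleted.

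*PHF13* had 524.2 and 558.3 normalized counts in the siPHF13 libraries and 512.8 and 529.4 in the siPHF13_TGFβ libraries, against 1804 and 1662.4 in siControl and 1585.9 and 1709.5 in siControl_TGFβ. A normalized count is the number of reads on a gene divided by a scaling factor of the library. TGFβ did not change *PHF13* past the thresholds in depleted cells (log2 fold change -0.05, standard error 0.09, adjusted p = 0.867). The 4 libraries held between 39196214 and 43439963 reads on genes. The replicates of the siPHF13_TGFβ group differed most: their squared difference averaged 23.33 times the counting variance, against 10.67 in siPHF13 and 3.638 in siControl. Keratins of ductal cells were present, with *KRT7* between 378.9 and 488.9 and *KRT8* between 78047 and 112937 normalized counts in the 4 libraries. Of the defining genes of acinar, endocrine, stromal, endothelial and immune cells, *SYP*, *PDGFRB*, *THY1*, *KDR* and *CD14* were in the table and the others were not. *PDGFRB*, *KDR* and *CD14* lay between 8.662 and 52.94 in the 4 libraries, and *THY1*, a stromal marker, had 197.9 and 155.9 without and 312 and 243.5 with TGFβ (log2 fold change 0.65, adjusted p = 0.0778). *SYP*, an endocrine marker, had 1505 and 1334 without and 1445 and 1552 with TGFβ, against 347.1 and 411.8 in siControl cells. The part of such cells in the results was not tested.

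With TGFβ, 150 genes were higher and 29 lower in siPHF13 cells, counted at a Benjamini-Hochberg adjusted p under 0.05 from limma and an absolute log2 fold change over 0.58, here called rises and falls. This was 1.35% of the genes tested, 1.13% higher and 0.218% lower. The median rise was 0.93 on the log2 scale, a fold of 1.9, and the median fall -0.80. There were 65 rises and 7 falls over a fold of 2. At the adjusted p alone, 295 genes were higher and 114 lower. The median of all genes was -0.01. Nothing in the labels says that replicates came from separate cultures, so the p-values measure the spread between these libraries only, and fewer cells of a kind cannot be told apart from less RNA per cell. The number of falls rested on single libraries: it was 19 without siPHF13 replicate 2 and 46 without siPHF13_TGFβ replicate 1, while the rises ranged from 123 to 179. Of the calls, 85 of the 150 rises and 10 of the 29 falls held without each of the 8 libraries in turn.

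**Figure D1:**
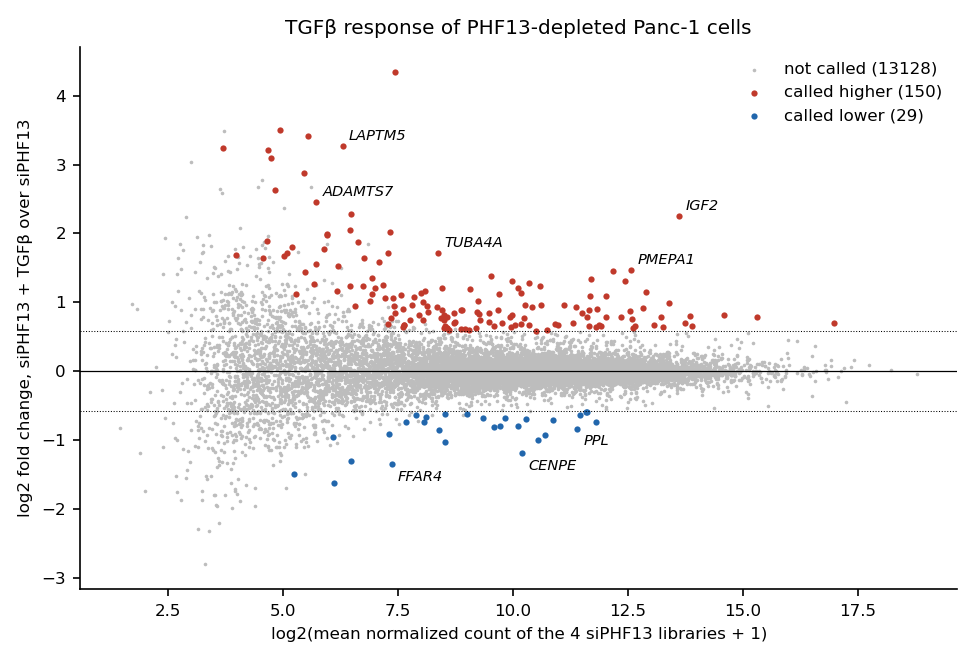
Each point is a gene: the horizontal axis gives the log2 of the mean normalized count of the 4 siPHF13 libraries after adding 1, the vertical axis the log2 fold change of siPHF13 cells with TGFβ over those without. The 150 called rises (red) occur at low and high levels, while the 29 called falls (blue) are fewer; dotted lines mark the fold threshold of 0.58.

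Where the 8 libraries averaged 100 normalized counts or more, the largest rises included *IGF2*, *LAPTM5* and *ADAMTS7*. *IGF2*, a fetal growth factor on chromosome 11 (2150342 to 2179621, GRCh37), had 4310.8 and 4352.2 normalized counts without TGFβ and 24169.6 and 17649.3 with it. Both treated libraries were far above both untreated ones, although they differed from each other by more than the untreated pair did (log2 fold change 2.25, standard error 0.13, adjusted p = 2.74e-07). *LAPTM5*, a lysosomal membrane protein best known from blood cells, rose from 9.946 and 18.74 to 157.6 and 126.1 normalized counts (3.27, standard error 0.34). *ADAMTS7*, a secreted metalloprotease, rose from 22.88 and 9.864 to 88.52 and 86.62 (2.46, standard error 0.31). The fold of these low genes carries a wide error, since few reads lie behind their untreated values.

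*P4HA3*, a prolyl hydroxylase that modifies collagen chains, rose from 83.55 and 62.15 to 233.2 and 244.5 normalized counts (log2 fold change 1.71, adjusted p = 0.000544). *TUBA4A*, an alpha tubulin, rose by as much, from 165.1 and 147 to 533.3 and 490.9 (1.71, adjusted p = 4.35e-05). *MMP9*, a gelatinase, rose from 76.59 and 58.2 to 204 and 202.1 (1.59, adjusted p = 0.000264). In each of these 3 genes the treated pair was tight and clear of the untreated pair. *TMEM92* rose with a log2 fold change of 2.01, and *CGB7*, a beta subunit of chorionic gonadotropin, with 2.28. *CGB7* belongs to a cluster of near-identical genes, so that its reads may be split among copies. The rises of *TNFAIP8L3* (1.65) and of *KCNG1*, a potassium channel subunit (1.53), were not called without siPHF13 replicate 1, where they were 1.14 and 1.05.

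**Figure D2:**
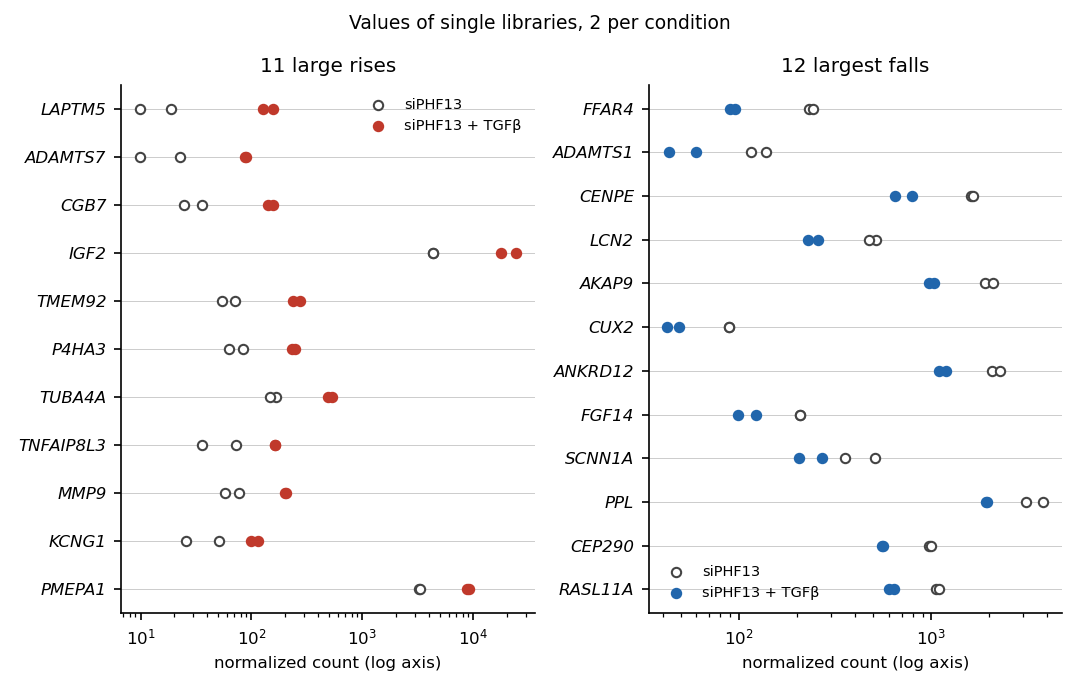
Normalized counts on a log axis in the 2 siPHF13 libraries (open circles) and the 2 siPHF13_TGFβ libraries (filled circles) for 11 of the 12 largest rises and the 12 largest falls with a mean of at least 100. In each gene the open and filled circles do not overlap; the gaps are widest for *LAPTM5*, *ADAMTS7*, *CGB7* and *IGF2* and narrow among the falls.

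Above the same average, the largest fall was that of *FFAR4*, a receptor for long-chain fatty acids, from 229.8 and 243.7 to 89.6 and 95.29 normalized counts (log2 fold change -1.35, adjusted p = 0.0035). It missed the threshold narrowly without siPHF13 replicate 2 (adjusted p = 0.0505). *PPL*, periplakin, which ties keratins to desmosomes, fell from 3119.2 and 3819.5 to 1931.3 and 1940.4 (-0.83, adjusted p = 7.54e-05). *RASL11A*, a small GTPase, fell from 1060.3 and 1098.9 to 599.1 and 639.1 (-0.80, adjusted p = 0.000414). These 2 falls held without each library. The others were less firm: *ADAMTS1*, a metalloprotease (-1.30), was not called without siPHF13 replicate 1 (-1.17, adjusted p = 0.092), and *SCNN1A*, a subunit of the epithelial sodium channel (-0.85), was not called without siPHF13 replicate 2 (-0.60) or siPHF13_TGFβ replicate 1 (-0.66). *LCN2* (-1.02), *CUX2* (-0.95) and *FGF14* (-0.91) each lost the call without either siPHF13 library, at adjusted p-values of 0.22 and 0.148, 0.118 and 0.128, and 0.0925 and 0.0965. The remaining 4 large falls, *CENPE*, *AKAP9*, *ANKRD12* and *CEP290*, are described with the comparison to siControl cells.

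Of 22 ligands and extracellular regulators of the TGFβ family, 3 rose and 1 fell, against 1.13% and 0.218% of all genes, with a median log2 fold change of 0.24. *LTBP2*, which sits in matrix microfibrils beside the latent TGFβ binding proteins, rose from 17252.2 and 18379.5 to 34059.2 and 28764.1 normalized counts (0.81, adjusted p = 1.89e-05). *INHBB*, the beta B subunit of activins and inhibins, fell from 1386.5 and 1451.1 to 785.9 and 842.2 (-0.80, adjusted p = 0.000144). *NOG*, which encodes the BMP antagonist noggin, rose just past the fold threshold (0.59), and was not called without siPHF13 replicate 2 (0.40) or siPHF13_TGFβ replicate 2 (0.51). *BMP2*, with 7.957 and 24.66 normalized counts before and 47.5 and 47.16 after (1.67, adjusted p = 0.0492), was not called without any 1 of 7 libraries, with values from 0.91 without siPHF13 replicate 1 upwards. *TGFB1* (0.45) and the latent binding proteins *LTBP3* (0.44) and *LTBP4* (0.53) had adjusted p-values under 0.05 but stayed below the fold threshold. They were named after their values were seen, as were all list members named further on that missed the fold threshold, except SMAD targets and EMT factors. edgeR called 2 and DESeq2 3 members of this list.

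None of the 18 receptors and SMADs was called with limma, edgeR or DESeq2. An unadjusted p under 0.05 with limma was found for 6, against 1853 of all 13307 genes. Over all genes limma called 1.35%, so 0 calls in a list of this size cannot be set apart from that share. Their median was -0.06, with values from -0.68 (*SMAD9*) to 0.37 (*BMPR2*). *TGFBR2* had 6520.9 and 6805.5 normalized counts without TGFβ and 6309.9 and 6307.2 with it (log2 fold change -0.08). *TGFBR1* had 896.2 and 819.7 against 720 and 951.9 (-0.05), so its treated libraries enclosed the untreated ones. *SMAD3*, the main DNA-binding SMAD of TGFβ, had 28797.1 and 31256.6 against 30428.7 and 26649.5 (-0.07), and the values of *SMAD2* (-0.12) and *SMAD4* (0.03) were as small. *BMPR2*, a type II receptor for BMPs, alone had an adjusted p under 0.05 (0.0181). *TGFBR3*, the coreceptor betaglycan, had 488.4 and 577.1 against 350.8 and 419.6 (-0.47, adjusted p = 0.0804), and would have been called without siPHF13_TGFβ replicate 2 (-0.60).

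SMAD target and feedback genes held the largest share of rises among the lists examined. Of 26 in the table, 10 rose and none fell, against 1.13% and 0.218% of all genes. A positive log2 fold change was seen in 25 of the 26, against 6354 of all 13307 genes, and the median was 0.43. edgeR and DESeq2 also called 10 each. *PMEPA1*, a membrane protein that traps SMADs and lies on chromosome 20 (56223448 to 56286592), rose from 3250.5 and 3279.9 to 9164.1 and 8861.7 normalized counts (1.46, standard error 0.06, adjusted p = 1.66e-08). *SKIL*, a corepressor of SMADs, rose from 2227 and 2301.4 to 4263.1 and 4103.1 (0.89, adjusted p = 3.75e-06). *SMAD7*, the inhibitory SMAD, rose from 890.2 and 916.4 to 1507 and 1577.5 (0.77, adjusted p = 0.000101). All 3 pairs were tight and separate.

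*SNAI1*, a transcription factor that represses E-cadherin, rose from 155.2 and 180.5 to 401.6 and 351.3 normalized counts (log2 fold change 1.16, adjusted p = 0.000613). *JUNB* (0.84), *CDKN1A*, the cell cycle inhibitor p21 (0.76), and *LTBP2* rose as well. *CTGF*, a matricellular protein, rose from 12602.2 and 11143.9 to 19352.8 and 18141.1 (0.66), and *SPHK1*, sphingosine kinase, from 1050.4 and 743.8 to 1459.5 and 1396.6 (0.69). Both depended on siPHF13 replicate 2, without which they were 0.57 and 0.44 and below the fold threshold. Members with an adjusted p under 0.05 but a smaller fold were *TGFBI* (0.45), *BHLHE40* (0.57), *RHOB* (0.43), *HMGA2* (0.34), *SMURF2* (0.29) and *KLF10* (0.28). Some textbook targets had values near 0, with a log2 fold change of 0.03 for *SKI*, 0.10 for *TGIF1* and 0.14 for *SMURF1*. *SMAD6*, the other inhibitory SMAD, had 270.5 and 264.4 normalized counts without and 366 and 360.9 with TGFβ, groups that do not overlap, but missed the thresholds (0.44, adjusted p = 0.0679). The ID genes, which respond to BMP SMADs, had -0.09 (*ID1*), 0.11 (*ID2*) and 0.16 (*ID3*).

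SMAD3 and SMAD4 bind the letters CAGAC, or GTCTG on the other strand, and the 8-base palindrome GTCTAGAC, which does not contain the former. In the 250 bases before the start site of each gene (RefSeq promoters, GRCh38.p14, found for 10005 of the 13307 genes), 43 of 100 promoters of genes that rose held CAGAC or GTCTG (43%), as did 8 of 22 of genes that fell (36.4%) and 36.1% of all 10005. The palindrome was in 0 of 100 and 0 of 22, and in 16 of all 10005 (0.16%). The AP1 site, TGACTCA or TGAGTCA, was in 5 of the 100, in 0 of the 22 and in 2.61% of all. These are matches of letters and not sites of binding. Among the 21 of the largest changes and called SMAD targets for which a promoter was found, *SMAD7* and *FGF14* had the most matches, 2 each, and their promoters are shown 5′ to 3′ on the minus strand with the matches in capitals, *SMAD7* at chr18:48950966-48951215 and *FGF14*, which encodes an intracellular fibroblast growth factor homolog and fell, at chr13:102402444-102402693.
SMAD7: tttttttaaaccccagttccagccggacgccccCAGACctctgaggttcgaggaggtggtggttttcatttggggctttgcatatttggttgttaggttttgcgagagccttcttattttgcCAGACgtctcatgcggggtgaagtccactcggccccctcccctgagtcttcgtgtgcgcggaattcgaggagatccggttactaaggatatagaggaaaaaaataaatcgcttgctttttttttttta
FGF14: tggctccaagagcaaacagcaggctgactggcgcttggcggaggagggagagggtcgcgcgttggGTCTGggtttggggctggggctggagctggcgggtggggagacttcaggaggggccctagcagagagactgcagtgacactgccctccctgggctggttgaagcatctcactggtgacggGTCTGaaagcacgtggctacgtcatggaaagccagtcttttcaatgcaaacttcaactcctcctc

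EMT transcription factors gave 2 rises among 13 in the table, against 1.13% of all genes. These were *SNAI1* (above) and *SOX9*, a factor of duct and progenitor cells. *SOX9* rose from 2551.3 and 2738.4 to 6144.7 and 5185.9 normalized counts (log2 fold change 1.09, adjusted p = 8.41e-06). *SOX4* had an adjusted p of 0.00129 at 0.43, below the fold threshold. *ZEB1*, an EMT repressor of epithelial genes, had 3062.5 and 3067.9 without TGFβ and 3130.6 and 2839.4 with it (-0.04). *SNAI2* had 11.94 and 17.76 against 55.06 and 19.25 and *ZEB2* 16.91 and 27.62 against 59.37 and 31.76, values carried by siPHF13_TGFβ replicate 1. Neither passed (adjusted p = 0.41 and 0.251). *PRRX1* had -0.51, *TWIST2* 0.34 and *FOXC2* 0.27. The median of the list, 0.43, was 0.08 without siPHF13_TGFβ replicate 1.

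Of 18 mesenchymal markers, 6 rose and 0 fell, against 1.13% and 0.218% of all genes. Their median was 0.49, and edgeR and DESeq2 called 6 each. Among the rises were *MMP9*, *COL1A1*, *MMP2*, *MMP14* and *ITGA5*, which encode a collagen chain, matrix proteases and a matrix receptor. *CDH2*, N-cadherin, had 1157.8 and 1241.9 normalized counts without TGFβ and 1788.8 and 1730.6 with it, groups that do not overlap (log2 fold change 0.55, adjusted p = 0.000712, under the fold threshold, and 0.60 without siPHF13 replicate 2). *VIM*, vimentin, had 168706.5 and 163652.7 against 178591.1 and 194290 (0.17, adjusted p = 0.281). *FN1*, fibronectin, had 49.73 and 92.73 against 65.85 and 83.74 (0.13), with overlapping groups.

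Of 31 epithelial junction and identity genes 22 had a negative value, as had 6953 of all 13307 genes, with a median of -0.10. Only 1 fell, which cannot be set apart from the 0.218% over all genes. It was *ELF3*, an epithelial ETS factor, from 1010.6 and 1251.8 to 687.7 and 719 normalized counts (log2 fold change -0.68, adjusted p = 0.00749, and -0.52 with no call without siPHF13 replicate 2). *CDH1*, E-cadherin, had 106.4 and 232.8 against 78.81 and 154 (-0.51, adjusted p = 0.561). In both groups replicate 2 was the higher, and without single libraries the value ran from -1.07 to 0.05. *EPCAM* had 240.7 and 305.8 against 224.5 and 257.9 (-0.17). Neither of these 2 markers was called in siPHF13 cells, while *CDH1* fell in siControl cells (-1.84, adjusted p = 0.00163). The difference of the 2 responses of *CDH1* was not called by limma (1.33, standard error 0.47, adjusted p = 0.327). Depleted cells had 39.3% of the siControl level of *CDH1* without TGFβ and 97.5% of the siControl_TGFβ level with it. The ductal keratins had lower values with TGFβ and groups that do not overlap, below the fold threshold, at -0.36 for *KRT8* (adjusted p = 0.0236), -0.30 for *KRT18* (adjusted p = 0.0239) and -0.33 for *KRT19* (adjusted p = 0.00831), whereas *KRT7* had 0.05.

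Matrix genes rose in several classes. Among 40 collagens, laminins and matrix glycoproteins 5 rose and 0 fell, against 1.13% and 0.218% of all genes. Of the 5 rises, 3 had log2 fold changes over 1.2. *COL1A1*, a chain of fibrillar type I collagen on chromosome 17 (48261462 to 48278993), rose from 1921.7 and 1887.1 to 4908.6 and 4691.2 normalized counts (1.33, standard error 0.06, adjusted p = 3.94e-08). *COL7A1*, the anchoring fibril collagen, rose from 3121.2 and 3283.9 to 7769.4 and 8163.9 (1.31, adjusted p = 3.66e-08). *COL5A1*, which nucleates fibrils, rose from 645.5 and 694.5 to 1698.1 and 1413.9 (1.21), and *COL4A2*, of basement membranes, from 409.8 and 396.6 to 851.8 and 781.5 (1.01). *LAMB3*, a chain of laminin 332, went from 544.1 and 543.5 to 904.6 and 877.8 (0.71). The median of the whole list, 0.09, was nevertheless close to that of all genes. *P4HA3* was the 1 rise among 20 enzymes of collagen folding and crosslinking (median 0.14), a count that cannot be set apart from 1.13% of all genes.

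Of 30 matrix proteases and inhibitors 6 rose and 1 fell, against 1.13% and 0.218% of all genes. *ADAM19*, a membrane-bound metalloprotease, rose from 4634.1 and 4911.5 to 11376.1 and 9879 normalized counts (log2 fold change 1.15, adjusted p = 7.07e-07). *MMP2*, a gelatinase, rose from 6666.1 and 7826.5 to 15442.7 and 13440.3 (1.00, adjusted p = 9.8e-06). *MMP14*, which activates MMP2 at the membrane, rose from 1584.5 and 1403.7 to 3130.6 and 2697.9 (0.96, adjusted p = 1.92e-05). *MMP9* and *TIMP2* (0.63) rose as well, and *ADAMTS1* was the fall. *MMP17* had 0.50 (adjusted p = 0.002), below the fold threshold.

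The fibronectin receptor chain *ITGA5* and the vitronectin receptor chain *ITGB3* were the 2 rises among 19 integrins (median 0.08, and 0.20 without siPHF13 replicate 2). The share over all genes was 1.13%, here and for the contractile genes below. *ITGA5* went from 28780.2 and 30649.9 to 53078.4 and 49443.3 normalized counts (log2 fold change 0.79, adjusted p = 4.7e-06). *ITGB3* went from 2203.1 and 2357.6 to 4264.1 and 3655.6 (0.79, adjusted p = 0.000124). *ITGAV* (0.42) and *ITGB4*, the hemidesmosome chain (-0.41), had adjusted p-values under 0.05 and folds below the threshold, and *ITGA2* had 0.17. Of 31 contractile actin genes 3 rose: *TPM1*, a tropomyosin, from 10707.4 and 10994 to 19015.9 and 18725.3 (0.80, adjusted p = 1.84e-06), *CALD1*, caldesmon, from 163.1 and 222.9 to 381.1 and 354.2 (0.94), and *PDLIM7*, a LIM domain adaptor on actin filaments (0.66, and 0.54 with no call without siPHF13_TGFβ replicate 1).

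Some other lists held single or few rises, where 1.13% of all genes rose. A single rise in a list of this size cannot be set apart from that share. In the axon guidance list of 43, *SEMA7A*, a membrane-anchored semaphorin that binds integrins, rose from 2422 and 2557.9 to 7263.1 and 6391 normalized counts (log2 fold change 1.45, adjusted p = 2.74e-07), and *NRP2*, a semaphorin and VEGF coreceptor, from 637.6 and 823.7 to 1743.4 and 1443.7 (1.13). *EPHB2*, an ephrin receptor, rose from 6751.7 and 7360.9 to 12908 and 11567.3 (0.79). *EPHA4* (0.95, adjusted p = 0.0361) was not called without any 1 library. In the insulin-like growth factor axis of 15, *IGF2* rose, and *IGFBP7* (0.78, adjusted p = 0.0407) was called only while all 4 siPHF13 and both siControl_TGFβ libraries were kept. *WNT9A* was the 1 rise of 32 Wnt genes, from 328.2 and 319.6 to 504.1 and 558.2 (0.71, adjusted p = 0.00134), and *CDKN1A* the 1 rise among 20 p53 targets and among 21 genes of G1 control.

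A further 5 genes that rose were named after their values were seen. *PDGFA*, a platelet-derived growth factor chain, went from 523.2 and 517.9 to 1159.4 and 1110.7 normalized counts (log2 fold change 1.12, adjusted p = 4.7e-06), and *PDGFB* from 2797 and 3368.7 to 5136.4 and 5440 (0.78). *IL11*, a cytokine of the interleukin 6 family, went from 436.7 and 419.2 to 791.3 and 757.5 (0.85, adjusted p = 0.000705). *ANGPTL4*, an inhibitor of lipoprotein lipase, went from 5383 and 4734 to 9063.7 and 10051.3 (0.92), and *MFAP2*, a microfibril protein, from 403.8 and 419.2 to 1122.7 and 1026 (1.38). In these 5 genes the groups were separate and the calls held without each library.

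Several lists showed 0 calls or 1. Over all genes 1.35% were called, so such counts in lists of this size cannot be set apart from that share. An unadjusted p under 0.05 with limma was reached by 1853 of all 13307 genes. None of 28 DNA replication genes was called with limma, edgeR or DESeq2, 1 had an unadjusted p under 0.05, and all values lay between -0.20 and 0.09 (median -0.07). Of 29 mitosis genes 26 had a negative value, against 6953 of all 13307 genes, with a median of -0.15, but 1 passed, *CENPE*. *CENPF* (-0.48) and *TOP2A* (-0.28) had adjusted p-values under 0.05. Of 23 interferon-stimulated genes 0 were called with any of the 3 tools, 4 had an unadjusted p under 0.05, and the median was -0.03 (-0.15 without siPHF13 replicate 1). The same 3 tools called 0 of 19 Notch genes (6 with an unadjusted p under 0.05), 0 of 23 unfolded protein response and ATF4 targets (5), 0 of 27 glycolysis and hypoxia-responsive genes (7) and 0 of 22 genes of cholesterol synthesis (14). The latter had a median of 0.19 with 20 of 22 above 0, against 6354 of all 13307 genes. In this list *INSIG1*, a sterol-regulated brake on the pathway, had the highest value (0.53, adjusted p = 0.00164).

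Of 18 members of the AP1 family *JUNB* alone was called, a count that cannot be set apart from 1.35% of all genes. *JUNB* rose from 2084.8 and 2108 to 3909 and 3625.7 normalized counts (log2 fold change 0.84, adjusted p = 4.74e-05). *ATF3*, a stress-induced member, had 654.5 and 552.4 without and 772.9 and 849.9 with TGFβ, groups that do not overlap (0.43, adjusted p = 0.0648). The other named members had values between -0.08 and 0.25: *FOSL2* 0.09, *FOSL1* -0.07, *ATF6* 0.04, *ATF5* -0.08, *JUND* 0.05, *JDP2* 0.25, *ATF1* 0.01 and *BATF3* 0.22. *PCDHB8*, a protocadherin (64.65 and 91.74 against 78.81 and 79.89), and *PAPLN*, a matrix protein (713.2 and 737.9 against 787 and 643.9), had overlapping groups, at 0.04 and -0.03.

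**Figure D3:**
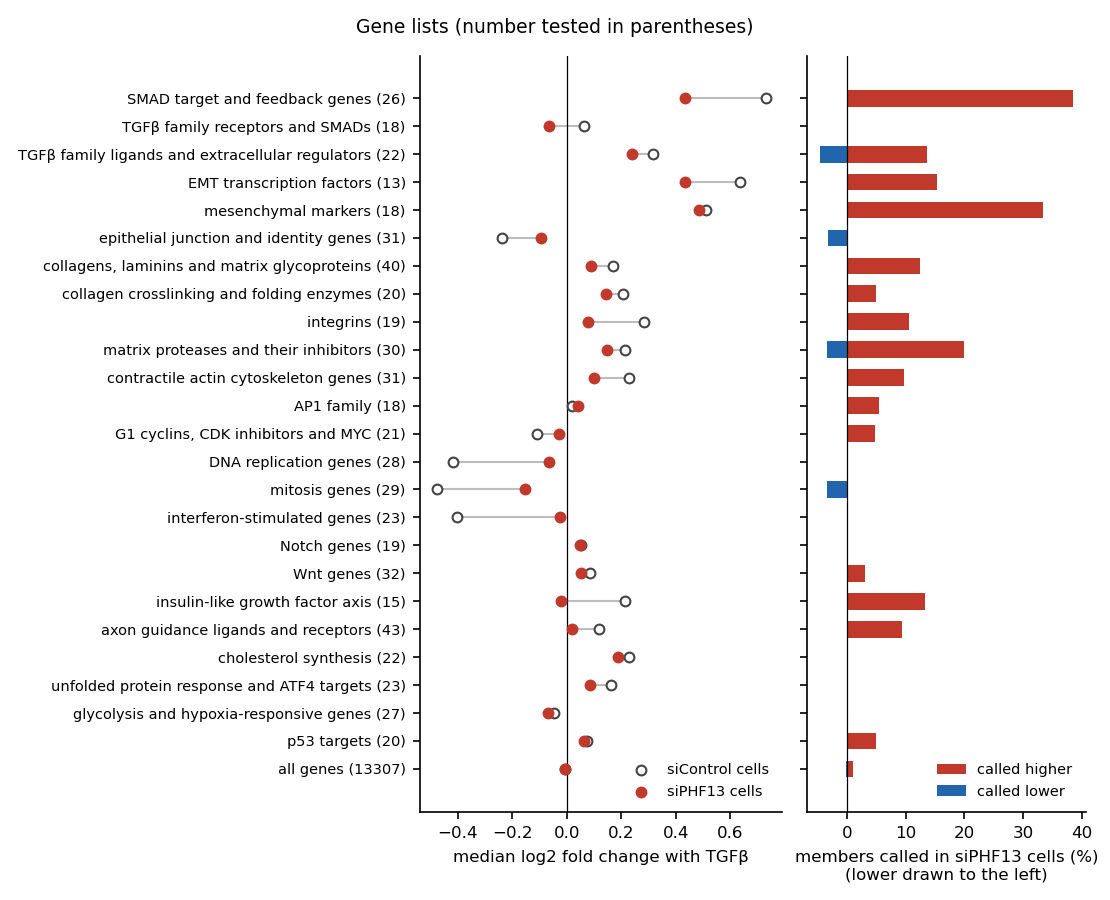
Left, the median log2 fold change with TGFβ of each gene list in siPHF13 cells (red) and in siControl cells (open circles); right, the percentage of members called in siPHF13 cells, rises to the right and falls to the left. SMAD targets and mesenchymal markers stand out by share of rises. DNA replication, mitosis and interferon-stimulated genes have medians of -0.07, -0.15 and -0.03 in siPHF13 cells and of -0.42, -0.48 and -0.40 in siControl cells.

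In siControl cells the same test called 435 rises (3.27%) and 202 falls (1.52%). Of the 150 rises in siPHF13 cells, 131 (87.3%) were also called in siControl cells, where they made up 30.1% of the rises. Of the 29 falls, 15 (51.7%) were shared, 7.43% of the siControl falls. No gene was called in opposite directions with limma, edgeR or DESeq2, and 16 genes had opposite signs at an unadjusted p under 0.05 in both with limma. The 304 rises and 187 falls called in siControl cells alone are not thereby shown to be lost in siPHF13 cells. Of these, 289 and 163 had the same sign in siPHF13 cells, and the difference of the responses was called for 10 and 7. The 19 rises and 14 falls called in siPHF13 cells alone are not shown to be particular to them, as the difference of the responses was called for 0 of the 19 and 5 of the 14. Among the 19, *ATP2A3*, an endoplasmic reticulum calcium pump, and *CD82*, a tetraspanin, both named after their values were seen, had log2 fold changes of 1.21 and 0.64 in siPHF13 and 0.58 and 0.48 in siControl cells. Of all 150 rises, 102 were smaller in siPHF13 than in siControl cells, and the median of the 150 was 0.93 against 1.22. Of all 29 falls, 14 were smaller in size in siPHF13 cells, and the median of the 29 was -0.80 against -0.75.

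Tested directly, the response differed between siPHF13 and siControl cells in 41 of the 13307 genes (0.308%), while 1259 had an unadjusted p under 0.05. In 33 the siPHF13 value was below the siControl value and in 8 above. Of the 33, 28 were rises in siControl cells, and 18 of these were rises in siPHF13 cells as well, so most were weaker rises. These counts rested on single libraries: without siPHF13_TGFβ replicate 1 they were 75 below and 36 above, and without siControl replicate 2 they were 12 and 0. The other siControl and siControl_TGFβ libraries left between 16 and 20 below and 0 or 1 above, siPHF13 replicate 1 left 22 and 0, and siPHF13 replicate 2 left 21 and 7. Only 11 of the 33 and 0 of the 8 held without each of the 8 libraries in turn. The 11 were *SIK1*, *ADAM19*, *MMP2*, *ULK1*, *COL1A1*, *PMEPA1*, *ITGA5*, *AKAP9*, *CEP290*, *ANKRD12* and *GOLGA4*.

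**Figure D4:**
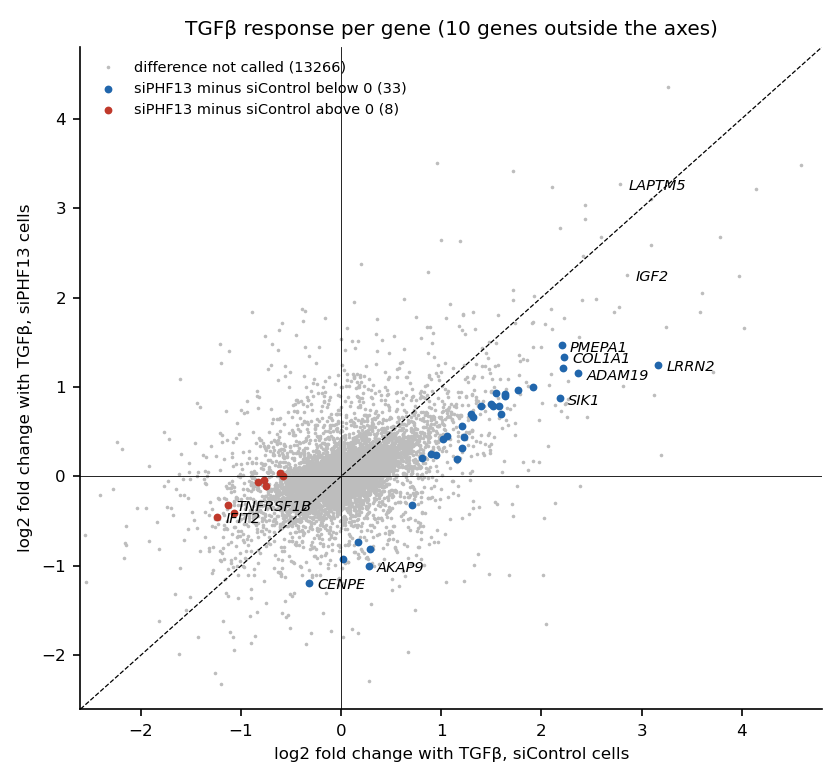
Each point is a gene, with the log2 fold change with TGFβ in siControl cells on the horizontal and in siPHF13 cells on the vertical axis; the dashed line marks equal responses, and 10 genes lie outside the axes. Genes with a called difference are blue (33, siPHF13 below siControl) or red (8, above); most blue points are rises in both kinds of cell that lie under the line.

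*SIK1*, a salt-inducible kinase, rose in siPHF13 cells from 4398.3 and 4088.8 to 7863.3 and 7663.4 normalized counts (log2 fold change 0.87), and in siControl cells from 1017.7 and 958.7 to 4526.9 and 4453.7 (2.18). The difference of the responses was -1.31 (standard error 0.10, adjusted p = 2.85e-05), and the starting level of depleted cells was 429% of that of siControl cells. *ADAM19* likewise started at 300% of the siControl level and rose by 1.15 against 2.37 (difference -1.21, adjusted p = 0.000117). *COL1A1* started at 56.2% and rose by 1.33 against 2.23 (difference -0.89, adjusted p = 0.000358). With TGFβ the depleted cells ended at 173% of the siControl_TGFβ level for *SIK1* and at 129% for *ADAM19*, but at 30.2% for *COL1A1*.

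*PMEPA1* started at 86.2% of the siControl level and rose by 1.46 against 2.20 (difference of the log2 fold changes -0.74, adjusted p = 0.00118), and *ITGA5* at 84.9% by 0.79 against 1.51 (-0.73, adjusted p = 0.0015). *MMP2* rose by 1.00 against 1.92 (-0.92) and *ULK1*, an autophagy kinase named after its value was seen, by 0.70 against 1.60 (-0.89, adjusted p = 0.00274). The level with TGFβ was 51.6% of that of siControl_TGFβ for *PMEPA1*, 51.4% for *ITGA5* and 69.9% for *MMP2*, and 115% for *ULK1*. *LRRN2*, a leucine-rich repeat protein, had the largest difference (-1.92, adjusted p = 0.0338), with 96.48 and 73 normalized counts before and 225.6 and 179 after TGFβ in siPHF13 cells, but it was not called without siControl replicate 2 (-1.62) or either siControl_TGFβ library, among others. In contrast, *IGF2* (difference -0.60, adjusted p = 0.243), *SNAI1* (-0.33, adjusted p = 0.711) and *SMAD7* (-0.31, adjusted p = 0.389) had no called difference of the responses. Their levels in depleted cells were not all alike those of siControl cells. *SNAI1* was at 31.5% of siControl and, with TGFβ, at 24.8% of siControl_TGFβ. *SMAD7* was at 89.7% and 72.5%, and *IGF2* at 215% and 142%. The values of *MMP14*, *SEMA7A*, *P4HA3*, *COL4A2* and *SOX9* differed by -0.37, -0.47, -0.02, 0.01 and 0.19.

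Of the 8 genes with a siPHF13 value above the siControl one, 7 were falls in siControl cells, and none was called in siPHF13 cells with limma. *TNFRSF1B*, a TNF receptor, had 3736.9 and 4535.7 normalized counts without and 3533.3 and 3084.8 with TGFβ in siPHF13 cells (log2 fold change -0.32), against -1.13 in siControl cells (difference 0.81, adjusted p = 0.00985). *IFIT2*, an antiviral effector, had 1880.9 and 2381.3 against 1517.8 and 1571.8 (-0.45, against -1.24 in siControl cells, difference 0.78). *IFIT3* (difference 0.76), *FANCD2*, of the Fanconi repair pathway (0.73), *ITGB4* (0.66) and *NEK2*, a centrosome kinase (0.64), followed. In siPHF13 cells without TGFβ *TNFRSF1B*, *IFIT2* and *IFIT3* were at 47.9%, 43.7% and 48.8% of the siControl level, and with TGFβ the depleted cells were at 83.9%, 74.8% and 82.2% of the siControl_TGFβ level. None of these differences was called without any 1 siControl library.

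*CENPE*, *AKAP9*, *CEP290*, *ANKRD12* and *GOLGA4* fell in siPHF13 cells and had a called difference, the 5 among 29 falls for which this holds (*GOLGA4* was named after its value was seen). *AKAP9*, a scaffold of the centrosome and Golgi on chromosome 7 (91570154 to 91739987), fell from 1905.7 and 2103.1 to 973.7 and 1027 normalized counts (log2 fold change -1.0, adjusted p = 9.06e-06), and had 3541.6 and 3095.9 without and 4110.7 and 3916.8 with TGFβ in siControl cells (0.28, difference -1.28, adjusted p = 0.000203). *CEP290*, of the ciliary transition zone, fell from 969.8 and 995.3 to 551.6 and 564 (-0.82), against 0.29 in siControl cells (difference -1.10, adjusted p = 0.000819). *ANKRD12*, an ankyrin repeat coregulator, fell from 2078.8 and 2288.6 to 1198.3 and 1101.1 (-0.92), against 0.02 (difference -0.94, adjusted p = 0.00137).

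*GOLGA4*, a golgin, fell from 4339.7 and 4689.6 to 2651.3 and 2757.5 normalized counts (log2 fold change -0.74), against 0.17 in siControl cells (difference -0.91, adjusted p = 0.000358). *CENPE*, the kinesin of the kinetochore, fell from 1616.3 and 1649.3 to 647.7 and 792.1 (-1.19, adjusted p = 9.8e-06), against -0.32 (difference -0.86, adjusted p = 0.0175, and not called without 5 of the 8 libraries, among them siControl replicate 2 with 0.2). All 5 genes were below the siControl level in depleted cells without TGFβ as well. They stood at 60.4% (*AKAP9*), 67.2% (*CEP290*), 70.5% (*ANKRD12*), 61.7% (*CENPE*) and 57.6% (*GOLGA4*) of it. Their longest annotated transcripts have 13915 (*AKAP9*), 13334 (*CEP290*), 11284 (*ANKRD12*), 8742 (*CENPE*) and 7908 bases (*GOLGA4*). The median over the 29 falls was 5283 bases, against 3944 over the rises and 3895 over all genes. Transcripts over 8000 bases made up 6 of the 29 falls, 10 of the 142 rises with an annotated length and 10.4% of all genes. All 5 genes were still called as falls after a correction of each library for transcript length and GC content, and without each of the 8 libraries. That correction removes only the average trend over all genes in a library, and the part of transcript length in these falls was not tested.

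**Figure D5:**
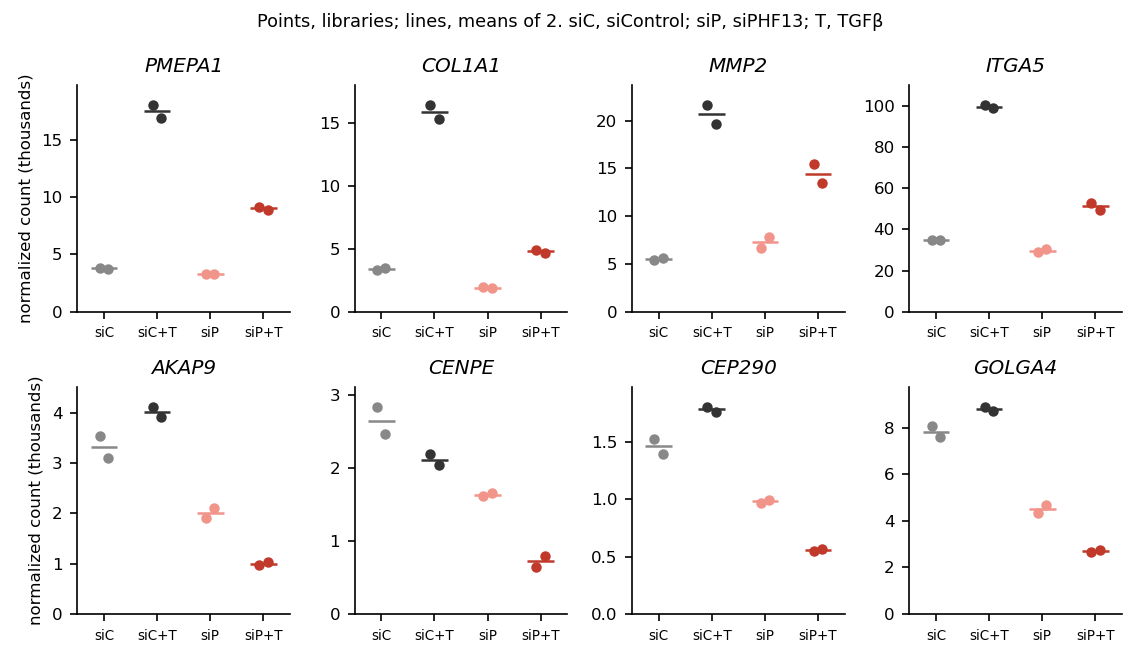
Normalized counts, on linear axes from 0, in single libraries (points) with the mean of each pair (line) for siControl, siControl with TGFβ, siPHF13 and siPHF13 with TGFβ. In the upper row *PMEPA1*, *COL1A1*, *MMP2* and *ITGA5* rise with TGFβ in both kinds of cell and reach lower levels in siPHF13 cells; in the lower row *AKAP9*, *CENPE*, *CEP290* and *GOLGA4* are lowest in siPHF13 cells with TGFβ.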

How the data were processed

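Poly(A) mRNA-seq was carried out on siControl and siPHF13 Panc-1 cells with and without TGFβ, 2 libraries a group. Per the study's methods and processing notes, the authors trimmed reads with Trim Galore (0.4.1), aligned them to hg19 with STAR (2.7.0), counted them on exons with HTSeq (0.12.4) and normalized with DESeq2. The strand setting and annotation release are not given in the sources used here. The deposited values are a signal, gene counts divided by the authors' size factors, from which whole reads were recovered for 100% of values (tolerance 1e-06). Values were tested as log2(value + 1) with limma (3.58.1, trend) in R 4.3.3, in 1 fit of all 8 libraries, with contrasts for each response and their difference. A call required both thresholds, 0.05 for the adjusted p and 0.58 for the size of the log2 fold change. A minimum of 10 in 2 libraries removed 0 genes. Fold changes of low genes are understated on this scale.

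edgeR (4.0.16) and DESeq2 (1.42.0) on recovered reads, other scalings, pseudocounts and minima, a replicate block and leaving out each library were alternatives. A correction for transcript length and GC content, chosen after seeing the data, used GENCODE annotation lifted to GRCh37 (92.6% of genes matched). The limma step was tested on simulated data. Genes named were the 12 largest rises and falls with a mean of at least 100, called members of lists (up to 4 a direction), all receptors and SMADs, EMT factors and SMAD targets as groups, genes the study names, and the 6 largest differences each way. Results for some genes selected in this way are not reported. The members and lists were chosen with earlier results of these data known.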

Additional observations from a re-analysis of the deposited data

Results flagged for a closer look

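The response to TGFβ differed between siPHF13 and siControl cells, by the limma test of the difference itself, in each of the following genes. Values are the log2 response in siPHF13 cells minus that in siControl cells.

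For genes that rose in siControl cells, the difference was -1.92 for *LRRN2*, -1.31 for *SIK1*, -1.21 for *ADAM19*, -1.02 for *DNM1*, which encodes the endocytic GTPase dynamin 1, and -1.01 for *COL5A1*. It was -0.92 for *MMP2*, -0.89 for *ULK1* and for *COL1A1*, -0.79 for *EPHB2*, -0.74 for *PMEPA1*, -0.73 for *ITGA5* and -0.72 for *ANGPTL4*. *LTBP2* (-0.68), *CTGF* (-0.66), *PDGFB* (-0.61) and *TGFBI* (-0.61) had smaller differences. That of *PDGFB* was not called with a replicate block (adjusted p = 0.0673), with genes of a mean under 100 left out (0.0543) or after quantile normalization (0.0857). After quantile normalization that of *TGFBI* was -0.52, below the fold threshold. The differences of *SIK1*, *ADAM19*, *MMP2*, *ULK1*, *COL1A1*, *PMEPA1* and *ITGA5* held without each library in turn. Those of *LRRN2*, *DNM1*, *COL5A1*, *EPHB2*, *ANGPTL4*, *LTBP2*, *CTGF*, *PDGFB* and *TGFBI* did not.

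For genes that fell in siPHF13 cells the difference was -1.28 for *AKAP9*, -1.10 for *CEP290*, -0.94 for *ANKRD12*, -0.91 for *GOLGA4* and -0.86 for *CENPE*. For genes that fell in siControl cells and were not called in siPHF13 cells it was 0.81 for *TNFRSF1B*, 0.78 for *IFIT2*, 0.76 for *IFIT3*, 0.73 for *FANCD2*, 0.66 for *ITGB4* and 0.64 for *NEK2*. That of *IFIT3* was not called with genes of a mean under 100 left out (adjusted p = 0.0523) or after quantile normalization (0.0536). No positive difference held without each library in turn, nor did that of *CENPE*.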

How the results depend on the processing

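Of 2627 values for 139 named results under the alternatives, 2551 kept their side of the threshold, 71 lost a call and 5 gained one. Where a gene was called in the main or the alternative fit, 0 values reversed. Values of uncalled genes could change sign, as that of *CDH1* did, from -1.07 to 0.05 without single libraries. Of 456 list medians 447 stayed within a small fixed margin on the log2 scale, which was not taken from the replicates, and 9 moved beyond it. Without the fold threshold 295 genes were higher and 114 lower. DESeq2 gave 15 differences above the siControl response. Leaving out 1 library at a time gave 123 to 179 rises, 19 to 46 falls, 0 to 36 differences above and 12 to 75 below the siControl response. The cause was not tested. Replicate numbers did not pair the samples (correlation of deviations between siPHF13 and siPHF13_TGFβ -0.089), and with a replicate block there were 142 rises and 29 falls, with 7 differences above and 32 below; *BMP2* (adjusted p = 0.0522) and *EPHA4* (0.052) were then not called, nor was the difference of *PDGFB* (adjusted p = 0.0673). With 2 libraries a group, the change of *CDH1* in siPHF13 cells, where its replicates differ widely, is not resolved.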
